A study of Mus musculus with 12 samples.

Results

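The colon of mice lacking both LAO1 and IL4i1 was compared with the colon of mice lacking IL4i1 alone, so that the comparison shows what the further loss of LAO1 went with when IL4i1 was already absent. The double knockout and the IL4i1 knockout were each measured on 3 Affymetrix arrays, 6 of the 12 arrays of the study. The other 6 arrays held 3 LAO1 knockout and 3 wild type samples. All mice were healthy males of 12 to 16 weeks, no treatment is named in the labels, and both compared genotypes carry the IL4i1 deletion. The probes described are the 19572 with a gene name among 22206 in all, and they stand for 19505 genes. The study set out to explain colonic inflammation in the double knockout, and its title names inflammatory diarrhea and the route from IDO1 to kynurenine. The labels say neither how the knockout alleles were made nor whether an array held RNA of 1 mouse. They name 4 mice per genotype for 3 arrays, so a p-value here measures only how these samples spread, in part perhaps for technical reasons.

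IL4i1 and LAO1 are L-amino acid oxidases, secreted enzymes that convert amino acids to keto acids and release hydrogen peroxide and ammonia. IL4i1 is known from antigen-presenting immune cells, where it acts on phenylalanine, tyrosine and tryptophan and dampens T cells. Interferon gamma, a cytokine of T cells and natural killer cells, switches on genes of cell-autonomous defence, antigen presentation and tryptophan breakdown. In the gut these genes respond to microbes that reach the epithelium, and mast cells and epithelial transporters also shape barrier function.

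Il4i1 had no named probe and was not analysed here. The probe for Lao1 read 3.23, 3.41 and 3.56 in the double knockout, against 2.98, 3.33 and 3.16 in the IL4i1 knockout, all below the lower quartiles of the arrays, 3.64 to 3.88. At that level the probe checked nothing, and the genotypes rest on the labels. Values are log2 levels as deposited, between 1.72 and 19.93, and values near the bottom carry no reliable level. Averaged over the list, 23 absorptive colonocyte markers stood at 12.58 to 12.69 in the double knockout and 12.09 to 13.95 in the IL4i1 knockout, while 14 small intestine markers stood at 5.24 to 6.04 and 5.33 to 6.08. IL4i1 knockout replicate 2 lay apart from the other arrays on the first principal component, double knockout replicate 1, which held Lcn2 and Reg3b at high levels, on the second and double knockout replicate 2, which held pancreatic acinar transcripts, on the third.

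Interferon-inducible genes and some mast cell proteases were higher in the double knockout than in the IL4i1 knockout, and a smaller set of epithelial and metabolic genes was lower. In limma's test 86 probes rose, 0.387% of those tested, and 20 fell, 0.0901% (adjusted p under 0.05, Benjamini-Hochberg over all 22206 probes). Of these, 73 and 19 had a gene name. The rises ran between 1.13 and 9.35 on the log2 scale with a median of 2.28, and the falls had a median of -1.87. At an unadjusted p under 0.05 there were 1149 probes higher (5.17%) and 1034 lower (4.66%). The median difference over all named genes was -0.02. As the array medians of the deposited values were already alike, at 5.415 to 5.49, it could not show a shift of all genes together. All 86 rising probes had every double knockout array above every IL4i1 knockout array, which 6.05% of all probes did, and all 20 falling probes had the reverse, which 6.62% did.

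The number of calls depended on the arrays fitted. With only the 6 compared arrays 28 rose and 5 fell. The rises numbered 136 without double knockout replicate 2, 41 without double knockout replicate 1, and 40 and 49 without IL4i1 knockout replicates 2 and 3. The falls numbered 38 without double knockout replicate 2, 5 without replicate 1 and 13 without replicate 3. They numbered 13, 11 and 12 without IL4i1 knockout replicates 1, 2 and 3, and 10 without LAO1 knockout replicate 3. Of the 106 probes called, 38 were called with each of the 12 arrays left out in turn, 34 of them rises. Below, genes of that kind are said to have held, whatever the fit of only the compared arrays gave. In that fit 6 named genes that held did not pass, namely Cpa3 (adjusted p = 0.0655), Gbp9 (0.0779), H2-D1 (0.0904), Wfdc2 (0.109), Sulf2 (0.137) and Cma2 (0.144). The LAO1 knockout and wild type arrays enter these fits through the shared estimate of the spread.

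**Figure D1:**
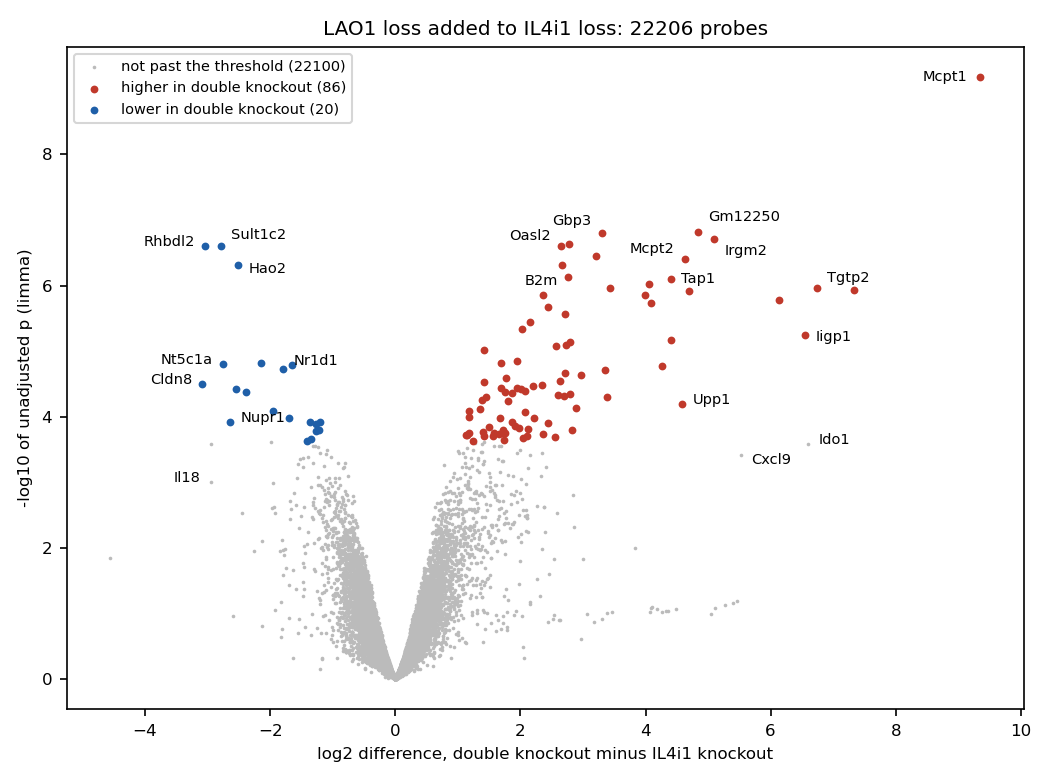
Each point is 1 of 22206 probes, with the log2 difference of the double knockout minus the IL4i1 knockout on the x axis and -log10 of limma's unadjusted p on the y axis. The 86 probes past the threshold on the right include interferon-inducible GTPase genes and Mcpt1, at 9.35, and the 20 on the left include Rhbdl2, Sult1c2 and Hao2.

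The list with the highest median was the immunity-related GTPases, proteins that gather on the vacuoles of intracellular pathogens and disrupt them. Irgm2 had 11.77, 11.51 and 11.94 in the double knockout, against 7.09, 5.99 and 6.84 in the IL4i1 knockout. The groups did not overlap, and the closest arrays lay over 4 log2 units apart. The difference was 5.1 (SE 0.52, limma, adjusted p = 0.000701), or 34.3-fold. Tgtp2, another vacuole-directed GTPase, had 12.42, 10.45 and 12.66 in the double knockout and 5, 4.5 and 5.81 in the IL4i1 knockout (difference 6.74, SE 0.8, adjusted p = 0.0014). Double knockout replicate 2 was the lowest of its group for both genes. Igtp, which shields host membranes from these GTPases, had 10.1, 8.22 and 9.73 against 4.35, 5.15 and 4.45 (difference 4.7, adjusted p = 0.0014). Of 10 family members measured, 7 rose and 0 fell, with a median difference of 4.39 over the 10. The other 4 rises were those of Iigp1 (6.55), Gm12250 (4.84, from dim IL4i1 knockout values of 3.75 to 4.13), Irgm1 (4.09) and Gm4951 (3.43), and all 7 held. Irgq (0.16) and Irgc1 (0.09), members of the family not known as interferon-inducible, did not pass, nor did F830016B08Rik (2.41, limma, adjusted p = 0.0812). Gm4841, outside the list, rose by 6.13 and held.

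The guanylate-binding proteins, which work beside these GTPases on pathogen vacuoles, rose in 6 of 6 members measured, with a median of 3.05. Gbp2 had 11.84, 9.6 and 11.55 in the double knockout, against 6.57, 6.67 and 6.55 in the IL4i1 knockout, a difference of 4.4 (SE 0.61, limma, adjusted p = 0.00513). The IL4i1 knockout arrays were nearly level for this gene, with an SD of 0.06 against 1.22 in the double knockout. Gbp3 rose by 3.31, Gbp7 by 3.21 and Gbp9 by 1.41, and these 4 held. Gbp4 (2.88) did not pass without any 1 of the 5 compared arrays other than double knockout replicate 2, with an adjusted p of up to 0.115, and Gbp8 (1.66) without any 1 of 9, up to 0.193. Members of these families, the class I genes below and Pisd-ps3 are close copies of other genes, and their probes may read each other's transcripts.

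Promoters of these genes were read because members of the 2 families rose together, and that of B2m, the class I light chain, is set beside them. The stretches below are RefSeq sequence of build GRCm38.p6, each read 5′ to 3′ on the gene's strand, and were taken from windows of 250 bases before to 50 bases after the start site. Capitals mark matches to an interferon-stimulated response element core, GAAA, any 2 bases and GAAA, and to a gamma-activated site, TTC, any 3 bases and GAA, each searched on both strands.
Igtp, chr11:58199497-58199556, plus strand: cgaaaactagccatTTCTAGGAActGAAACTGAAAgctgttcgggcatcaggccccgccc
Irgm2, chr11:58214888-58214947, plus strand: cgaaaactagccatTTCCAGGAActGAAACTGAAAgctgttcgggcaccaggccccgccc
Tgtp2, chr11:49064248-49064307, minus strand: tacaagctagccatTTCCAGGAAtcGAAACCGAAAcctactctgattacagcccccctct
Gm12250, chr11:58183772-58183831, plus strand: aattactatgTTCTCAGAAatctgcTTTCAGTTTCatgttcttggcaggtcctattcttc
Irgm1, chr11:48871416-48871475, minus strand: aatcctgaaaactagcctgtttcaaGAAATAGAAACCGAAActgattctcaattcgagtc
Gbp2, chr3:142620579-142620638, plus strand: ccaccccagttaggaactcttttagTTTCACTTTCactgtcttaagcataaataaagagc
Gbp3, chr3:142559974-142560033, plus strand: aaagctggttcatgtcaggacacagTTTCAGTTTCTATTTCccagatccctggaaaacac
Gbp7, chr3:142530258-142530317, plus strand: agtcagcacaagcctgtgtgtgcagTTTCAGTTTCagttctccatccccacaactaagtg
B2m, chr2:122147523-122147582, plus strand: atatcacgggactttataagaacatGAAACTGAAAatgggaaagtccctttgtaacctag
In Igtp, Irgm2 and Tgtp2 the gamma-activated match began 11 bases before the response element match. Gm12250 differed, with 15 bases between these starts and the response element match on the opposite strand, and Irgm1 had 0 gamma-activated matches in its stretch. Igtp and Irgm2 lie near each other on chromosome 11, and their stretches are nearly the same. In Gm12250 and the 3 Gbp promoters the response element match lay on the opposite strand and so reads in capitals as its reverse complement.

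The response element core was found in the windows of 16 of 54 named rising genes with a window in the table (29.6%), beside 3.99% of the 27025 genes of the table and 3.94% of genes with a probe. It was found in 5 of 5 rising immunity-related GTPases with a window, 3 of 3 rising guanylate-binding proteins, 3 of 10 rising class I genes and 0 of 3 rising class II genes. The gamma-activated core was found in 9 of the 54 (16.7%), beside 9.55% of the table. Of 13 falling genes with a window, 0 held the first core and 2 the second. A match describes letters only, and 19 of the 73 named rising genes had no window to search.

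**Figure D2:**
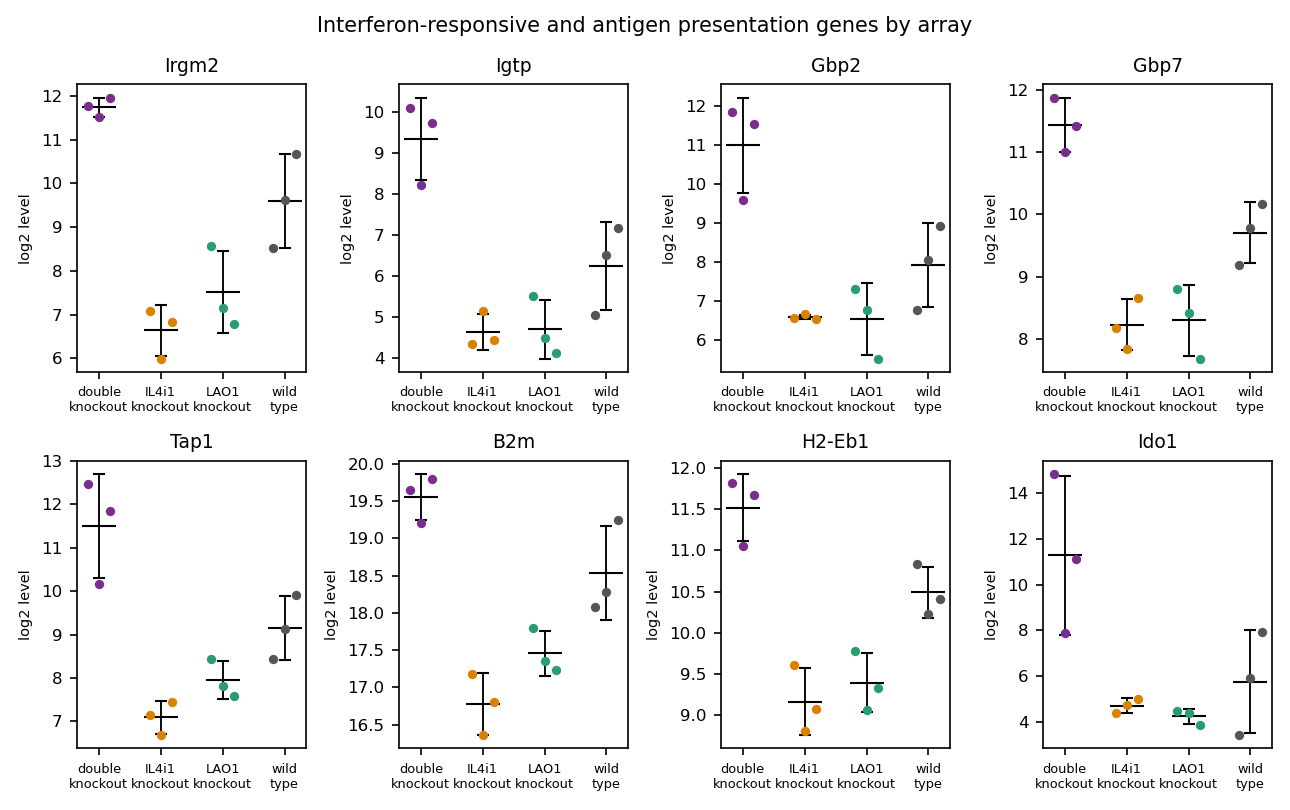
The log2 level of 8 genes on each array (points) with the genotype mean and SD (bar and whiskers, n = 3) for the double knockout, the IL4i1 knockout, the LAO1 knockout and wild type. In each panel the 3 double knockout arrays lie above the 3 IL4i1 knockout arrays, and Ido1 spreads widest, between 7.88 and 14.85 in the double knockout.

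A further list held the cytokine interferon gamma, its receptors, regulators and some targets. Of 24 measured, 3 rose and 0 fell, with a median of 0.81. At an unadjusted p under 0.05, 11 were higher and 2 lower, beside 5.26% and 4.79% of named genes. Irf1, an interferon-induced transcription factor, had 13.84, 12.84 and 13.46 in the double knockout, against 10.39, 10.5 and 10.89 in the IL4i1 knockout (difference 2.79, SE 0.39, limma, adjusted p = 0.00533). Cd274, which encodes the T cell inhibitory ligand PD-L1, had 8.2, 7.35 and 7.2 against 5.29, 4.46 and 5.02 (difference 2.66, adjusted p = 0.000898). Both held, with no overlap between the groups. Socs1, the feedback inhibitor of the pathway, rose by 1.7 and did not pass without IL4i1 knockout replicate 1 (adjusted p = 0.0518) or double knockout replicate 1 (0.0872). Lgals9, chosen after its values were seen, encodes the lectin galectin-9 and rose by 2.78 (adjusted p = 0.000701), and it held.

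Ido1, which breaks down tryptophan to kynurenine, had 14.85, 7.88 and 11.14 in the double knockout, against 4.36, 4.72 and 5.01 in the IL4i1 knockout. Every double knockout array was higher, but they differed among themselves by almost 7 log2 units. The difference of 6.59 (SE 1.34) did not pass, with a limma adjusted p of 0.0523. It passed without double knockout replicate 2 (8.3, adjusted p = 0.0029), without wild type replicate 1 (0.0423) and without wild type replicate 3 (0.0491). Over all 19 alternative fits the Ido1 difference ran between 4.81 and 8.3, with an adjusted p of up to 0.301, and it passed in 5. The T cell attractant Cxcl9 had 13.36, 7.46 and 8.06 against 4.27, 4.27 and 3.77 (difference 5.52, adjusted p = 0.0647), and it passed without double knockout replicate 2 (0.0215). Over the 19 alternative fits its difference ran between 3.66 and 6.61, with an adjusted p of up to 0.316, and it passed in 1. Cxcl10 (1.8, adjusted p = 0.214) was also highest in double knockout replicate 1. Ifng itself was dim, with 5.51, 4.34 and 4.77 against 4.62, 3.93 and 4.34, and the groups overlapped (0.58, adjusted p = 0.544). Il18, an epithelial cytokine that stimulates interferon gamma, had 7.01, 6.54 and 7.48 against 9.31, 9 and 11.56, a difference of -2.95 that did not pass (adjusted p = 0.116).

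MHC class I displays peptides of the cell's own proteins to cytotoxic T cells. All 25 members measured had a positive difference, as 47.6% of named genes did, with a median of 1.4, and 11 rose. Tap1, a subunit of the peptide transporter, had 12.47, 10.16 and 11.86 in the double knockout, against 7.15, 6.68 and 7.44 in the IL4i1 knockout (difference 4.41, SE 0.51, limma, adjusted p = 0.00127). B2m, the shared light chain, had 19.64, 19.2 and 19.8 against 17.18, 16.36 and 16.8 (difference 2.77, adjusted p = 0.00125). Its double knockout values lay close to 19.93, the highest value of the table. The heavy chain genes H2-D1 (2.03), H2-Q4 (2.44) and H2-K1 (2.01) rose, as did the immunoproteasome subunits Psmb8 (3.35), Psmb9 (2.35) and Psmb10 (1.91). Tapbpl (1.72), a peptide editor, and the nonclassical H2-T22 (1.4) and H2-T23 (1.73) completed the 11.

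Tap1, B2m, H2-D1 and H2-Q4 held. Psmb8 did not pass without double knockout replicate 1 or IL4i1 knockout replicate 2 (adjusted p up to 0.0582). Psmb9 (up to 0.0863) and H2-K1 (up to 0.0821) did not pass without double knockout replicate 1 or 3 or IL4i1 knockout replicate 2, nor without IL4i1 knockout replicate 1 for Psmb9 and 3 for H2-K1. Psmb10 and Tapbpl (10 arrays each, up to 0.169), H2-T22 (9 arrays, up to 0.167) and H2-T23 (8 arrays, up to 0.21) were the least stable.

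MHC class II, which presents to helper T cells, rose in 4 of 11 members measured, with a median of 2.01. H2-Eb1 had 11.82, 11.05 and 11.68 in the double knockout, against 9.6, 8.8 and 9.07 in the IL4i1 knockout (difference 2.36, SE 0.29, limma, adjusted p = 0.00147). H2-Ab1 and H2-Aa, the paired chains of another class II molecule, rose by 2.72 and 2.98. H2-DMb1, part of the peptide exchange factor, had 10.93, 10 and 10.7 against 9.14, 6.62 and 7.38, a difference of 2.83 (adjusted p = 0.0412). The 11 genes averaged 7.9 to 8.68 in the double knockout, against 7.64, 6.3 and 6.74 in the IL4i1 knockout. H2-Eb1 and H2-Ab1 held, H2-Aa did not pass without double knockout replicate 1 or 3 (adjusted p up to 0.0586), and H2-DMb1 without any 1 of 8 arrays (up to 0.19). The master regulator Ciita differed by 2.01 and did not pass (adjusted p = 0.109), but did without double knockout replicate 2 (0.0353).

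Genes of the antiviral response to type I interferon had a lower median than the GTPase and MHC lists. It was 0.69, near the 0.81 of the interferon gamma list. Of 35 measured, 30 were higher, as 47.6% of named genes were, 6 rose and 0 fell. At an unadjusted p under 0.05, 22 were higher and 0 lower, beside 5.26% and 4.79% of named genes. Oasl2, an oligoadenylate synthetase-like protein, had 10.61, 10.73 and 11.14 in the double knockout, against 8.13, 8.43 and 7.95 in the IL4i1 knockout (difference 2.66, SE 0.28, limma, adjusted p = 0.000701), and it held. The ubiquitin ligase Dtx3l (1.95), its partner Parp9 (1.75), the nucleic acid sensor Zbp1 (1.87), the signal transducer Stat2 (1.44) and Oas3 (1.19) made up the rest. Dtx3l and Parp9 did not pass without IL4i1 knockout replicate 1 or 2 or double knockout replicate 1, nor Parp9 without double knockout replicate 3 (adjusted p up to 0.0821 and 0.1). Stat2 and Zbp1 did not pass without IL4i1 knockout replicate 2 or 3 or double knockout replicate 3, nor Zbp1 without IL4i1 knockout replicate 1 (up to 0.095 and 0.0705), and Oas3 failed in 11 of the 12 fits (up to 0.157). The classical members Isg15 (0.54), Ifit1 (0.68), Mx1 (0.48) and Rsad2 (0.37) did not pass. Averaged over the list, the arrays were tight, at 6.5 to 6.57 in the double knockout and 5.73 to 5.86 in the IL4i1 knockout.

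Marker lists of immune cells showed few calls. Over all named genes 5.26% were higher and 4.79% lower at an unadjusted p under 0.05. In bulk tissue, more cells of a type and more RNA per cell cannot be told apart. Of 23 T and cytotoxic lymphocyte markers 0 passed limma's threshold and 4 were higher at an unadjusted p under 0.05, led by the granule protease Gzma (1.52) and including Gzmb (1.04) and Cd3e (0.78). The list median was 0.18, with 17 differences positive and 6 negative. Other T cell and granule genes were flat or lower, among them Cd3d (-0.01), Cd3g (-0.04), Cd4 (-0.06) and Prf1 (-0.31). Without double knockout replicate 2, Gzma (adjusted p = 0.00593) and Gzmb (0.0261) passed. Their list mean was 4.7 to 5.04 in the double knockout, against 4.44 to 4.59 in the IL4i1 knockout. Of 23 macrophage and dendritic cell markers 0 passed, 7 were higher and 1 lower at an unadjusted p under 0.05, among the higher the complement gene C1qa (1.28) and the monocyte receptor Ccr2 (1.16). Ccl8, a chemokine for monocytes and other leukocytes, had 7.11, 9.16 and 8.78 against 5.48, 4.34 and 5.07 (difference 3.39, adjusted p = 0.018). It was the only call among 37 inflammatory cytokines and chemokines, whose median was 0.55 and, without double knockout replicate 1, 0.22. It did not pass without double knockout replicate 3 or IL4i1 knockout replicate 2 or 3 (adjusted p up to 0.0941). Upp1, which splits uridine, had 10.63, 6.55 and 10.65 against 4.47, 4.5 and 5.09 (difference 4.59, adjusted p = 0.0219), and it did not pass without any 1 of the 5 compared arrays other than double knockout replicate 2 (up to 0.12). The plasma cell gene Jchain varied between arrays, standing at 16.25, 18.79 and 18.4 in the double knockout and 17.71, 12.5 and 18.18 in the IL4i1 knockout.

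One array held Lcn2 and Reg3b far above the others. In double knockout replicate 1 the neutrophil and epithelial iron-sequestering gene Lcn2 stood at 9.81, against 3.33 and 3.6 in the other 2 double knockout arrays and 3.26 to 3.94 in the IL4i1 knockout. The antimicrobial lectin Reg3b stood at 18.59 there and at 6.52 and 4.75 in its group mates, against 10.19, 6.54 and 6.95 in the IL4i1 knockout. Neither gene passed (limma, adjusted p = 0.619 and 0.875). Saa1, an acute phase gene of the same list, went the other way, at 6.57 on that array and 8.72 and 9.24 in its group mates, against 9.11, 10.71 and 12.06 in the IL4i1 knockout (-2.45, adjusted p = 0.182). The difference of Lcn2 was 2.03 with all arrays and -0.08 without that array, and that of Reg3b was 2.06 and -2.26. The median of 23 epithelial antimicrobial genes was 0.25 with it and -0.15 without. Irgm2, Gbp7, Tap1 and B2m were called without that array too.

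The largest rise was that of a protease gene of mucosal mast cells. Mcpt1, a chymase of intestinal mast cells, had 11.77, 12.95 and 13.41 in the double knockout, against 2.88, 3.26 and 3.95 in the IL4i1 knockout (difference 9.35, SE 0.6, limma, adjusted p = 1.47e-05). Mcpt2 had 7.21, 8.36 and 8.35 against 3.11, 3.5 and 3.43 (difference 4.63, adjusted p = 0.000882). The IL4i1 knockout values lie near or below the lower quartile of the arrays, so the sizes of these differences are not exact. Cpa3, the mast cell carboxypeptidase, had 5.45, 7.22 and 6.56 against 3.53, 3.76 and 3.78 (difference 2.72, adjusted p = 0.0115), its IL4i1 knockout values again dim. The chymase gene Cma2, chosen after its values were seen, rose by 2.21 (adjusted p = 0.0154). All 4 held, though Cpa3 and Cma2 did not pass with only the compared arrays. Of 18 mast cell and eosinophil markers measured, these first 3 rose and 0 fell, with a median of 0.31. Other markers of the list did not pass, among them the proteases Mcpt9 (0.88), Mcpt4 (0.6), Tpsb2 (0.4), Tpsab1 (-0.03) and Cma1 (-0.06). The receptor genes Kit (-0.11) and Fcer1a (0.01) did not pass either.

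Mcpt1 and Cpa3 had their lowest means in the single knockouts. Mcpt1 averaged 12.71 ± 0.85 in the double knockout, 3.36 ± 0.54 in the IL4i1 knockout, 7.42 ± 0.68 in the LAO1 knockout and 11.19 ± 1.35 in wild type (SD, n = 3 each). The double knockout and wild type arrays overlapped, at 11.77 to 13.41 and 9.68 to 12.3, while both single knockouts were below every array of either. Cpa3 averaged 6.41 ± 0.89 in the double knockout, 3.69 ± 0.14 in the IL4i1 knockout, 4.53 ± 0.25 in the LAO1 knockout and 6.39 ± 0.81 in wild type, with the single knockouts again lowest. The LAO1 knockout minus wild type difference passed for neither gene (limma, adjusted p = 0.282 for Mcpt1 and 1.0 for Cpa3), and its median over the 18 list genes was -0.17. Neither the double knockout nor the IL4i1 knockout was tested against wild type here.

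**Figure D3:**
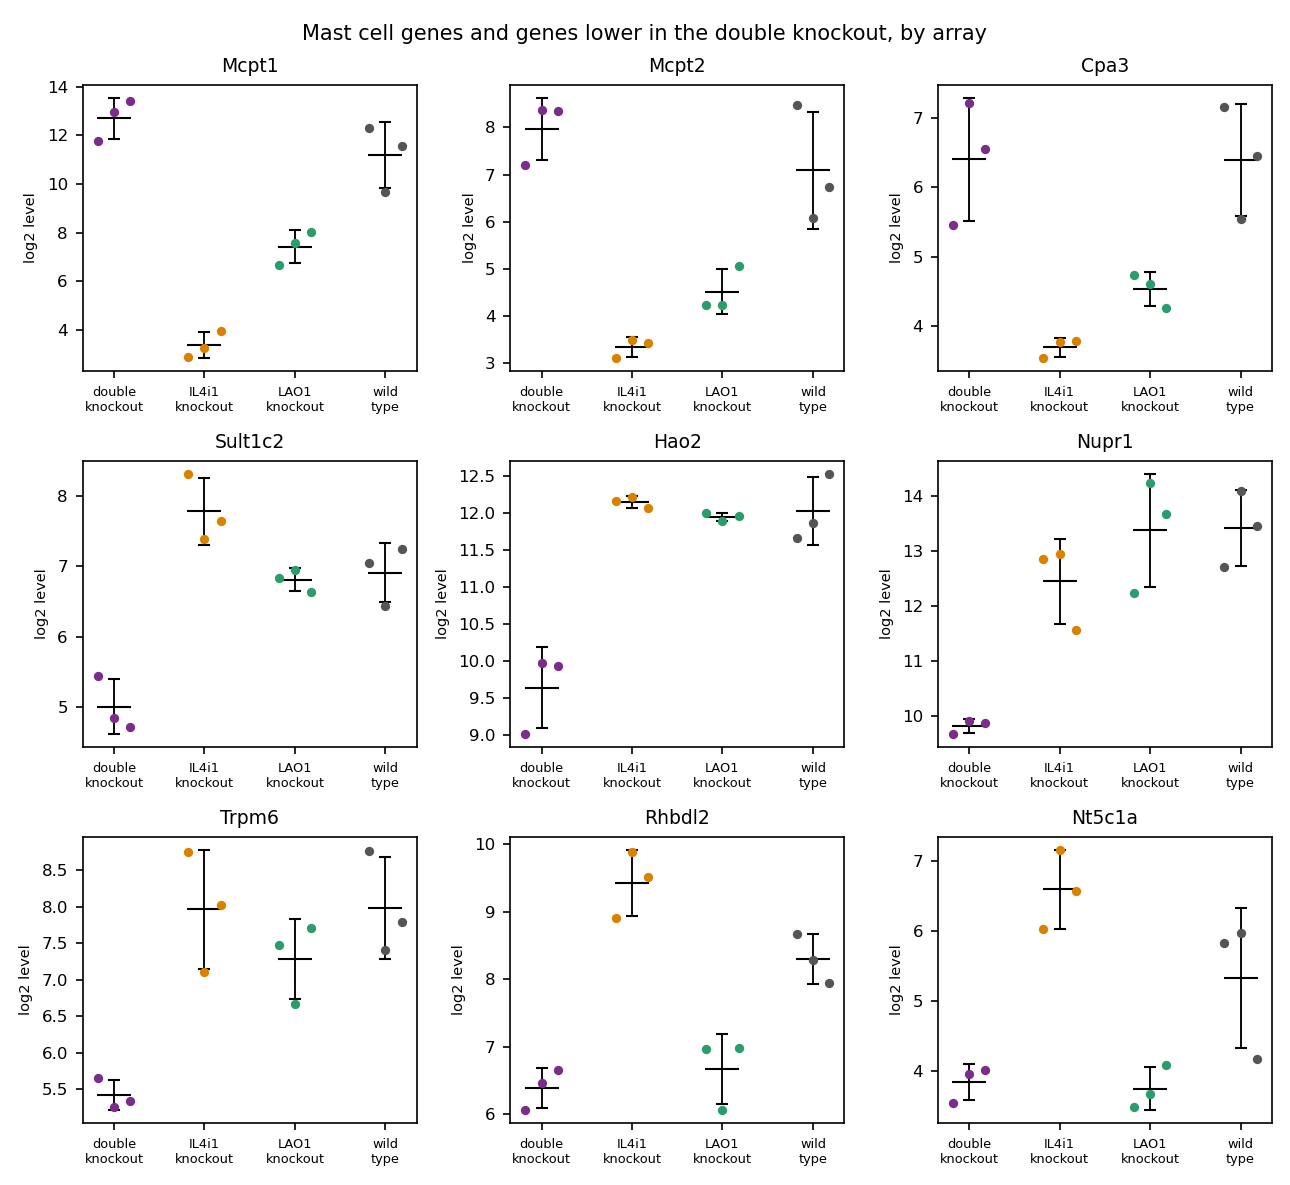
The log2 level of 3 mast cell genes and 6 falling genes on each array (points) with the genotype mean and SD (n = 3). Mcpt1, Mcpt2 and Cpa3 are lowest in the IL4i1 knockout, Sult1c2, Hao2, Nupr1 and Trpm6 are lowest in the double knockout, and Rhbdl2 and Nt5c1a have their lowest means in the genotypes that lack LAO1.

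Falls included enzymes, channels and junction proteins of the epithelium. Hao2, a peroxisomal oxidase of 2-hydroxy acids that releases hydrogen peroxide, had 9.01, 9.97 and 9.94 in the double knockout, against 12.17, 12.22 and 12.07 in the IL4i1 knockout (difference -2.51, SE 0.28, limma, adjusted p = 0.000898). All 9 arrays of the other genotypes lay between 11.67 and 12.54, so the double knockout alone was low. Sult1c2, a cytosolic sulfotransferase, had 5.44, 4.84 and 4.71 against 8.32, 7.39 and 7.64 (difference -2.79, adjusted p = 0.000701). Its LAO1 knockout and wild type means were 6.81 and 6.91, between the 2 compared groups. Nupr1, a stress-induced transcription cofactor, had 9.67, 9.91 and 9.87 against 12.85, 12.94 and 11.57 (difference -2.64, adjusted p = 0.0348). The double knockout arrays of Nupr1 were nearly level and lay below all 9 others. Hao2 and Sult1c2 held, and Nupr1 did not pass without any 1 of 7 arrays (adjusted p up to 0.156).

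Trpm6, the epithelial magnesium channel, had 5.65, 5.26 and 5.34 in the double knockout, against 8.74, 7.11 and 8.02 in the IL4i1 knockout (difference -2.54, SE 0.42, limma, adjusted p = 0.0161). Cldn8, a sealing claudin of colonic tight junctions, had 3.65, 4.22 and 4.38 against 6.62, 6.41 and 8.47 (difference -3.08, adjusted p = 0.0149). Wfdc2, a secreted epithelial protease inhibitor-like protein, stood at 3.95, 3.9 and 3.92 against 5.62, 5.61 and 6.98 (difference -2.15, adjusted p = 0.00928). The Cldn8 and Wfdc2 levels of the double knockout are near the bottom of the arrays. Hsd17b2, which inactivates estradiol and testosterone, had 7.9, 8.29 and 8.59 against 10.04, 10.09 and 9.59 (difference -1.65, adjusted p = 0.0094). Wfdc2 held. Without double knockout replicate 1 the adjusted p was 0.0857 for Cldn8. Hsd17b2 did not pass without double knockout replicate 1 or IL4i1 knockout replicate 2 (up to 0.0531), nor Trpm6 without IL4i1 knockout replicate 1 or 3 or double knockout replicate 1 or 3 (up to 0.0675).

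The remaining large falls were of mixed function. Nr1d1, the clock repressor REV-ERB alpha, had 8.47, 9.61 and 9.11 in the double knockout, against 11.06, 10.53 and 10.99 in the IL4i1 knockout (difference -1.8, SE 0.28, limma, adjusted p = 0.0103). It was the only call among 19 clock genes, and the labels give no collection times. Without IL4i1 knockout replicate 3 its adjusted p was 0.052. Ipw, an imprinted noncoding RNA, fell by 2.39 and the muscle ubiquitin ligase Fbxo32 by 1.69. The pseudogene Pisd-ps3 fell by 1.36 and the retinol dehydrogenase Rdh16 by 1.35. Ipw did not pass without IL4i1 knockout replicate 1 or 2 or double knockout replicate 1 (adjusted p up to 0.102), and Fbxo32, Pisd-ps3 and Rdh16 without any 1 of 6, 9 and 9 (up to 0.165, 0.151 and 0.217). The dim Rdh16 values of the double knockout, 3.35 to 3.88, lie near the lower quartiles of the arrays.

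Genes of sulfate handling held 2 calls. Beside Sult1c2, the extracellular heparan sulfate sulfatase Sulf2 rose, with 10.29, 9.57 and 9.43 in the double knockout and 7.79, 7.93 and 8.51 in the IL4i1 knockout (difference 1.69, SE 0.25, limma, adjusted p = 0.00928), and it held. Slc26a2, the sulfate transporter mutated in human diastrophic dysplasia, had 13.88, 14.16 and 13.99 against 15.92, 14.88 and 14.91, a difference of -1.23 that did not pass (adjusted p = 0.0537) but did after quantile normalization (-1.4, 0.0212). The groups did not overlap for any of the 3. Over the 18 genes of sulfate uptake, sulfation and sulfatases, 1 rose, 1 fell and 13 had a negative difference, beside 52.2% of named genes. Their median of -0.24 was -0.09 without double knockout replicate 1 and -0.48 without double knockout replicate 2.

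Genes that flank the targeted loci on their chromosomes were counted apart, since neighbours are inherited with the targeted allele. Among named array genes in RefSeq order, 3 of the 200 nearest to Lao1 fell and 0 rose, beside 0.0901% of all probes that fell. They were the 47th, 54th and 58th genes on the same side. Nt5c1a, a cytosolic nucleotidase, had 3.54, 3.96 and 4.02 in the double knockout, against 6.04, 7.17 and 6.58 in the IL4i1 knockout (difference -2.76, limma, adjusted p = 0.00928). Rhbdl2, a rhomboid protease of the cell surface, had 6.06, 6.47 and 6.65 against 8.9, 9.88 and 9.51 (difference -3.04, SE 0.32, adjusted p = 0.000701). Utp11, a factor of ribosomal RNA processing, had 7.23, 7.18 and 7.26 against 8.42, 8.24 and 8.79 (difference -1.26, adjusted p = 0.0357).

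Rhbdl2 and Nt5c1a had lower means in both genotypes without LAO1. Rhbdl2 averaged 6.39 ± 0.3 in the double knockout and 6.67 ± 0.52 in the LAO1 knockout, against 9.43 ± 0.49 in the IL4i1 knockout and 8.3 ± 0.37 in wild type (SD, n = 3 each). Its LAO1 knockout minus wild type difference was -1.63, which did not pass in that comparison (limma, adjusted p = 0.84). Nt5c1a stood at 3.48, 3.68 and 4.09 in the LAO1 knockout, against 5.83, 5.97 and 4.18 in wild type, so that 1 wild type array was about as low (-1.58, adjusted p = 1.0). For Utp11 that difference was -0.39. Rhbdl2 held, Nt5c1a did not pass without double knockout replicate 1 or IL4i1 knockout replicate 2 (adjusted p up to 0.0533), and Utp11 without any 1 of 10 arrays (up to 0.154). The part of the alleles around Lao1 in these falls was not tested. Beside Il4i1, which both groups lack, 1 of 200 genes fell, Car11 (-1.26, adjusted p = 0.0415), a carbonic anhydrase-related protein, and it did not pass without any 1 of 7 arrays (up to 0.198).

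Other epithelial lists had mostly negative differences and few calls, with medians that depended on single arrays. Among all named genes 52.2% had a negative difference. At an unadjusted p under 0.05, 4.79% were lower and 5.26% higher. Of 29 ion and water transport genes 21 had a negative difference, with a median of -0.23 that was -0.04 without double knockout replicate 1 and -0.08 without IL4i1 knockout replicate 3, and Trpm6 was the only call. The chloride and bicarbonate exchanger Slc26a3 had 13.7, 15.29 and 15.73 in the double knockout, against 15.95, 16.72 and 15.92 in the IL4i1 knockout, a difference of -1.29 that did not pass (limma, adjusted p = 0.414). Of 23 absorptive colonocyte markers 15 were negative, with a median of -0.48, and 0 passed, with 6 lower and 1 higher at an unadjusted p under 0.05. That median lay between -0.9 without IL4i1 knockout replicate 3, whose list mean of 12.09 was below every double knockout array, and -0.07 without IL4i1 knockout replicate 2, and each of the 4 other compared arrays left out brought it to between -0.26 and -0.11. Of 25 xenobiotic metabolism genes 21 were negative (median -0.58), 0 passed and 6 were lower at an unadjusted p under 0.05, among them the carboxylesterase Ces2a (-2.13). Their median was -0.25 without IL4i1 knockout replicate 1 and -0.38 without double knockout replicate 3. Goblet cell and mucus genes had a median of -0.1 over 20 genes, which was 0.07 without IL4i1 knockout replicate 3 and 0.04 without double knockout replicate 1, with 0 past the threshold, 2 in each direction at an unadjusted p under 0.05.

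Enteroendocrine genes had a negative difference in 25 of 31, beside 52.2% of named genes, with a median of -0.31. Cpe, a carboxypeptidase of prohormone processing, had 8.42, 9.22 and 8.24 in the double knockout, against 10.35, 9.91 and 9.85 in the IL4i1 knockout (difference -1.41, SE 0.28, limma, adjusted p = 0.0488). It was the only call and did not pass without any 1 of 11 arrays (adjusted p up to 0.218). The granins Chgb (-1.94, adjusted p = 0.169), Chga (-1.45, 0.315) and Scg2 (-1.2, 0.122) did not pass, though Scg2 did without LAO1 knockout replicate 2 (0.0408). The list mean was 5.31 to 5.41 in the double knockout, against 5.86 to 5.93 in the IL4i1 knockout, without overlap. Cpe and the granins are also expressed by enteric neurons.

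Muscle and nerve transcripts had mostly negative differences without a call. For all named genes the shares were 52.2% with a negative difference and 4.79% lower at an unadjusted p under 0.05. All 18 smooth muscle genes had a negative difference, with a median of -0.83 that was -0.51 without IL4i1 knockout replicate 2, 0 passed and 8 were lower at an unadjusted p under 0.05. Acta2, smooth muscle actin, had 16.6, 16.85 and 16.59 in the double knockout, against 17.13, 18 and 17.51 in the IL4i1 knockout (difference -0.87, limma, adjusted p = 0.204). The list mean was 12.6 to 13.18 in the double knockout, against 13.01, 14.18 and 13.74 in the IL4i1 knockout, and replicate 2 of the IL4i1 knockout was the highest array. Of 20 enteric neuron and glia genes 19 were negative (median -0.43, and -0.24 without IL4i1 knockout replicate 2), 0 passed and 4 were lower at an unadjusted p under 0.05. The vesicle protein Syt1 came nearest (-1.28, adjusted p = 0.0534) and passed without LAO1 knockout replicate 2 (0.0341) or IL4i1 knockout replicate 3 (0.0416). The part that the share of muscle layer in each piece of colon had in the other differences was not tested.

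**Figure D4:**
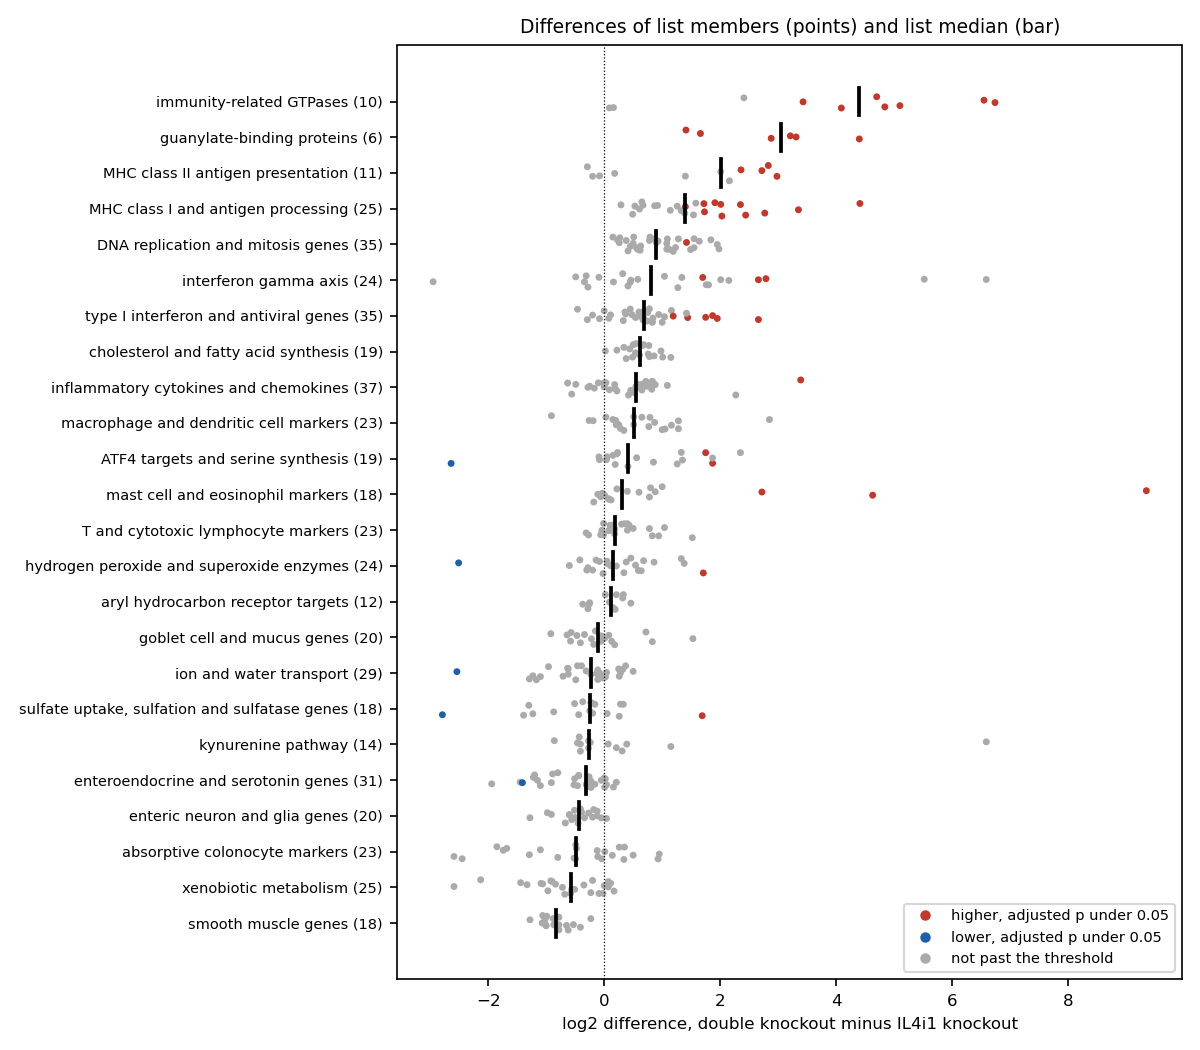
Log2 difference of each measured member (points) of 24 gene lists, with the list median as a bar and the number measured in brackets, on a linear x axis. Medians run between 4.39 for the immunity-related GTPases and -0.83 for smooth muscle genes, and red and blue points passed limma's threshold.

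Genes of DNA replication and mitosis were higher in all 35 members measured, with a median of 0.9, which was 0.52 without double knockout replicate 1, and 20 at an unadjusted p under 0.05. Among all named genes 47.6% had a positive difference and 5.26% were higher at that p. Only Fen1, a nuclease of replication, passed, with 6.74, 6.11 and 6.67 in the double knockout and 5.48, 5.23 and 4.56 in the IL4i1 knockout (difference 1.42, limma, adjusted p = 0.0439), and it did not pass without any 1 of 8 arrays (up to 0.208). The proliferation marker Mki67 had 15.96, 14.03 and 14.28 against 13.87, 12.56 and 12.92 (1.64, adjusted p = 0.237), and the mitotic kinase Bub1 stood at 1.95 (0.0619). Bub1 passed without IL4i1 knockout replicate 1 (0.0461) or double knockout replicate 2 (0.0273). The list mean was highest in double knockout replicate 1, at 8.66, with 7.31 and 7.79 in the other 2 and 6.75 to 7.12 in the IL4i1 knockout. Cholesterol and fatty acid synthesis genes had 19 of 19 positive, with a median of 0.61 that was 0.35 without IL4i1 knockout replicate 2, 0 past the threshold and 7 higher at an unadjusted p under 0.05. Their list mean overlapped, at 10.45 to 11.06 against 9.59 to 10.75, with IL4i1 knockout replicate 2 the lowest array.

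Pathways tied to the 2 enzymes' chemistry showed few changes. At an unadjusted p under 0.05, 5.26% of all named genes were higher and 4.79% lower. Of 14 kynurenine pathway genes 0 passed, 2 were higher and 1 lower at an unadjusted p under 0.05, and apart from Ido1 the largest difference was that of the aminotransferase Got2, 1.15. Kmo (0.39, limma, adjusted p = 0.691) and Kynu (0.31, 0.755), which act on kynurenine, were dim. A list of 12 genes held the aryl hydrocarbon receptor, which binds kynurenine and indole ligands, with its partner and targets. Of these 0 passed at either an adjusted or an unadjusted p under 0.05, with a median of 0.12. Their list mean was 5.38 to 5.54 in the double knockout and 5.29 to 5.46 in the IL4i1 knockout. The ligands themselves were not measured. Of 14 genes of phenylalanine and tyrosine catabolism 0 passed, with 3 in each direction at an unadjusted p under 0.05. Among 24 hydrogen peroxide and superoxide enzymes Hao2 fell and Xdh, the xanthine oxidoreductase, rose, with 11.85, 11.28 and 12.57 in the double knockout and 9.66, 10.23 and 10.67 in the IL4i1 knockout (difference 1.71, adjusted p = 0.0425). Xdh did not pass without any 1 of 9 arrays (up to 0.156).

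Amino acid stress genes held calls in both directions. Of 19 ATF4 targets, Asns, the asparagine synthetase, had 12.94, 13.16 and 11.7 in the double knockout, against 10.55, 10.54 and 11.1 in the IL4i1 knockout (difference 1.87, limma, adjusted p = 0.0348). Mthfd2, a mitochondrial folate enzyme, rose by 1.75 (adjusted p = 0.0425), and Nupr1 fell. Asns did not pass without any 1 of 8 arrays (up to 0.176) and Mthfd2 without any 1 of 11 (up to 0.19). Double knockout replicate 2, which held pancreatic acinar transcripts, was among these arrays for both genes. The list mean was 8.63, 8.77 and 7.77 in the double knockout, and replicate 3 lay within the 7.68 to 7.89 of the IL4i1 knockout. Among 23 amino acid transporters 0 passed, with 5 higher and 2 lower at an unadjusted p under 0.05, beside 5.26% and 4.79% of named genes. Slc7a5, a carrier of large neutral amino acids, had 12.09, 13 and 9.11 against 9.21, 8.38 and 8.85 (2.59, adjusted p = 0.181). It passed without double knockout replicate 3 (3.73, adjusted p = 0.00452).

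Double knockout replicate 2 carried transcripts of the pancreas. The mean of 20 acinar markers was 14.03 on that array, against 5.46 and 6.06 in the other 2 double knockout arrays and 5.55 to 6.42 in the IL4i1 knockout. The carboxypeptidase Cpa1 stood at 18.12 there and at 4.45 to 5.27 on the 5 other compared arrays. The list's median difference was 2.57 with that array and -0.1 without it, and 0 of 20 members passed limma's threshold or had an unadjusted p under 0.05. Without it, Mcpt1, Irgm2, Tap1, Hao2 and Sult1c2 were called as before. The part of this tissue in the other differences was not tested.

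Whether LAO1 loss went with a different change in mice that had IL4i1 was asked with the interaction, the difference above less the LAO1 knockout minus wild type difference. In limma 46 probes (0.207%) had a more positive difference without IL4i1 and 5 (0.0225%) a more negative one, with 1582 (7.12%) at an unadjusted p under 0.05. Mcpt1 differed by 9.35 without IL4i1 and by -3.77 with it (interaction 13.12, adjusted p = 1.62e-05). Irgm2 differed by 5.1 and -2.1 (interaction 7.2, adjusted p = 0.000953), Oasl2 by 2.66 and -1.15 (3.81, 0.000953) and B2m by 2.77 and -1.07 (3.84, 0.00202). Of the 86 rising probes, 81 had a negative difference in the LAO1 knockout against wild type and 5 a positive one, with a median of -0.59. The share of all probes with a negative difference in that comparison was not counted. In limma's test of that comparison 0 of the 86 passed as lower, and 0.0% of all probes did. At an unadjusted p under 0.05, 30 of the 86 were lower, beside 1.57% of all probes. The rises were picked in part by a small spread that both tests share. These counts therefore cannot be read as a tendency of the rises.

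Irgm2 and B2m were lowest in the single knockouts. Irgm2 averaged 11.74 ± 0.22 in the double knockout, 6.64 ± 0.58 in the IL4i1 knockout, 7.51 ± 0.94 in the LAO1 knockout and 9.6 ± 1.08 in wild type (SD, n = 3 each). B2m averaged 19.55 ± 0.31, 16.78 ± 0.41, 17.46 ± 0.3 and 18.54 ± 0.63 in the same order. For both genes the 2 single knockouts lay below wild type in mean and the double knockout above it. All 7 rising immunity-related GTPases and 4 of the 6 guanylate-binding proteins passed the interaction test in the positive direction, beside 0.207% of all probes. The difference that made these genes rises is itself part of the interaction, so these passes are no separate support.

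The falls were set beside the same comparison. Of the 20 falling probes 14 also had a negative difference in the LAO1 knockout against wild type and 6 a positive one, with a median of -0.1. Without the share over all probes, these counts cannot be read as a tendency of the falls. Hao2 differed by -2.51 without IL4i1 and by -0.07 with it (interaction -2.44, limma, adjusted p = 0.0177), and Sult1c2 by -2.79 and -0.1 (interaction -2.69, 0.0114). Nr1d1 differed by -1.8 and 0.81 (interaction -2.6, 0.0106). The adaptor gene Sh3d19 differed by -0.5 without IL4i1 and by 2.93 with it (interaction -3.43, 9.47e-05), as it stood at 14.67 to 15.55 on all 9 knockout arrays and at 11.79 to 12.11 in wild type. Fam161a, a ciliary protein, differed by -0.8 and 0.74 (interaction -1.54, 0.0179). Rhbdl2 (interaction -1.41, 0.431) and Nt5c1a (-1.18, 0.73) did not pass, and their differences were negative in both settings.

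**Figure D5:**
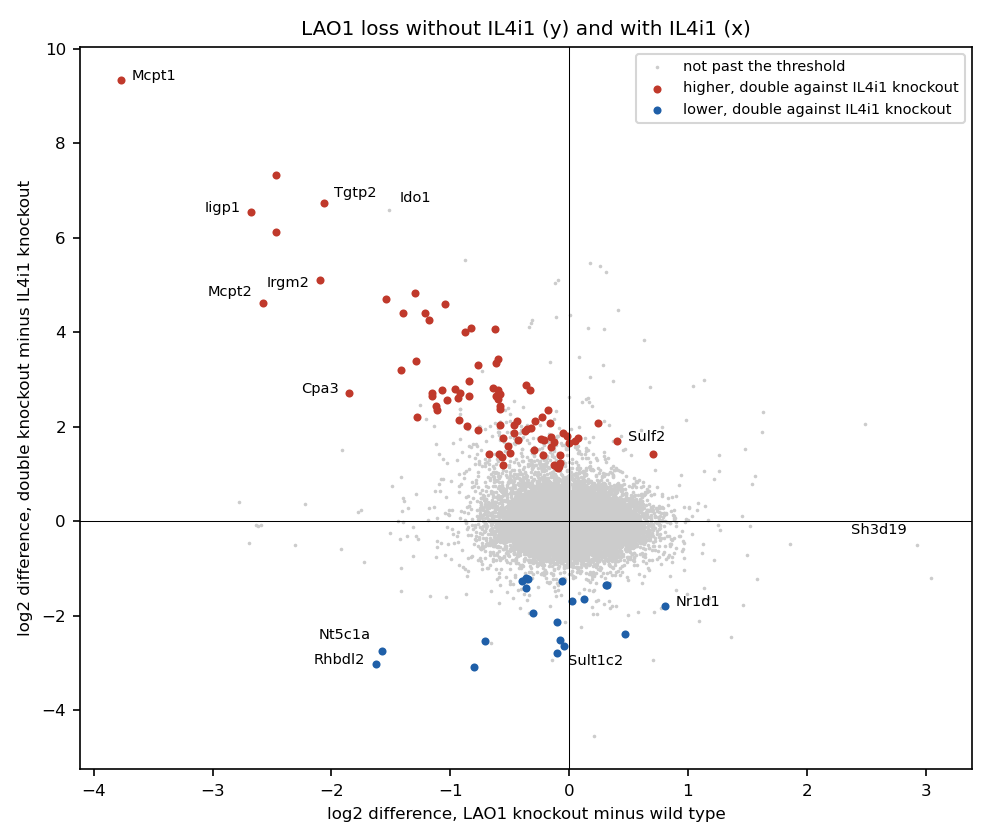
Each point is a probe, with the log2 difference of the LAO1 knockout minus wild type on the x axis and that of the double knockout minus the IL4i1 knockout on the y axis, 2 comparisons with no array in common. Of the 86 red probes 81 lie left of 0, and Rhbdl2 and Nt5c1a lie low on both axes. The share of all probes left of 0 was not counted.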

How the data were processed

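Total RNA of colon was turned into biotin-labelled cRNA and hybridised to Affymetrix arrays, per the labels' protocols. The authors deposited log2 expression values of 22206 probes on 12 arrays, made with Transcriptome Analysis Console per the submitters' processing notes. Neither its version nor the summarisation, normalization or genome build is given in the sources used here. No further normalization or filter was applied, and array medians lay between 5.415 and 5.49. For arrays no read depth exists, and their number limits the precision. Genes were named by the platform annotation, possibly old, which left 2634 probes unnamed. Of the probes, 22 reached the highest value on at least 1 array, and 0 of those were called.

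Groups and replicate numbers came from the labels. The test was limma's (version 3.58.1, R 4.3.3; lmFit, then eBayes), 1 fit of all 12 arrays with a mean per genotype and 8 residual degrees of freedom. Every p is two-sided, its adjustment (Benjamini-Hochberg) runs over the 22206 probes, and calls need an adjusted p under 0.05 with no fold limit. SE is limma's. The method was tested on simulated data first. Pairwise correlations between arrays were 0.964 to 0.99.

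The 43 gene lists were described by counts and medians, with 1 probe per gene, that of the highest mean over all arrays. Some genes stand in more than 1 list. The rule named the 15 largest rises and falls among named probes past the threshold, the 5 smallest p in each direction of the interaction, every list member past the threshold and otherwise the 4 members with the smallest p, Ido1 and the targeted genes. The comparison, its lists and its named genes were chosen with earlier results of these data known. Genes named after their values were seen were Cma2, Utp11, Car11, Lgals9, Cxcl9, Cxcl10, Ifng, Il18, Slc26a2, Slc26a3, Chga, Chgb, Scg2, Mki67, Bub1, Cpa1, Kynu, Kmo, Reg3b, Isg15, Ifit1, Mx1, Rsad2, Ciita, Irgq and Irgc1. Also named after their values were seen were Mcpt4, Mcpt9, Cma1, Tpsab1, Tpsb2, Kit, Fcer1a, F830016B08Rik, Cd3d, Cd3g, Cd4 and Prf1. Of 43 lists, those not described in the text held 0 calls.

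Alternatives were a fit of only the 6 compared arrays, eBayes with trend and robust options, quantile normalization, a filter that kept probes with a mean above the 40th percentile, array weights, replicate number as a block, and each array left out in turn. A fit without double knockout replicate 1 and IL4i1 knockout replicate 2 was added after seeing the data. Promoter windows and gene order came from RefSeq tables of GRCm38.p6. Figures were drawn with matplotlib 3.10.9.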

Additional observations from a re-analysis of the deposited data

Results flagged for a closer look

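The change that went with LAO1 loss differed between mice without and with IL4i1, by limma's interaction test over all probes, at 46 probes in the positive and 5 in the negative direction. For each gene below, the value is the log2 difference of the double knockout minus the IL4i1 knockout, less that of the LAO1 knockout minus wild type.

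Among mast cell proteases the values were 13.12 for Mcpt1, 7.2 for Mcpt2, 4.57 for Cpa3 and 3.49 for Cma2. Among immunity-related GTPases they were 9.22 for Iigp1, 8.8 for Tgtp2, 7.2 for Irgm2, 6.24 for Igtp, 6.13 for Gm12250, 4.91 for Irgm1 and 4.03 for Gm4951. Gm4841 had 8.6. The guanylate-binding proteins had 5.79 (Gbp2), 4.62 (Gbp7), 4.08 (Gbp3) and 2 (Gbp9).

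In antigen presentation the values were 5.62 for Tap1, 3.97 for Psmb8, 3.84 for B2m, 3.56 for H2-Q4, 2.86 for H2-K1 and 2.49 for H2-D1. The class II genes had 3.82 (H2-Aa), 3.64 (H2-Ab1) and 3.47 (H2-Eb1). Other interferon-responsive genes had 3.81 (Oasl2), 3.5 (Cd274), 3.38 (Lgals9), 3.12 (Irf1), 2.31 (Parp9) and 1.94 (Stat2), and the chemokine Ccl8 had 4.67.

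The 5 negative values were -3.43 for Sh3d19, -2.69 for Sult1c2, -2.6 for Nr1d1, -2.44 for Hao2 and -1.54 for Fam161a. Sh3d19 was low in wild type alone.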

How the results depend on the processing

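With 3 arrays a genotype the counts moved with single arrays. Left out 1 at a time, the arrays gave 40 to 136 rises (86 with all) and 5 to 38 falls (20 with all). The interaction gave 32 to 69 more positive probes and 3 to 7 more negative ones, against 46 and 5. In a fit of only the 6 compared arrays 28 rose and 5 fell, and this fit has fewer residual degrees of freedom. Quantile normalization gave 32 falls. Without double knockout replicate 1 and IL4i1 knockout replicate 2, chosen after seeing the data, 19 rose, 6 fell, and the interaction gave 29 and 3; the fit has 10 arrays. The other planned settings kept the counts of rises between 80 and 128. Same-numbered double knockout and IL4i1 knockout arrays had deviations from their group means correlated at 0.115, -0.142 and 0.127. Those with different numbers had -0.243 to 0.116. Whether arrays with the same number share a batch was not tested. With the replicate block 128 rose, 38 fell, and the interaction gave 52 and 8.

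Of 67 named genes past the threshold, 16 passed under all 19 alternatives, namely Mcpt1, Mcpt2, Irgm2, Gm12250, Igtp, Gm4951, Tap1, Gbp3, Gbp7, B2m, Cd274, Oasl2, Lgals9, Rhbdl2, Sult1c2 and Hao2. The fit of only the compared arrays ended 40 of the 67 calls. Lcn2 had -0.08 without double knockout replicate 1 and -0.23 without that array and IL4i1 knockout replicate 2, and Reg3b had -2.26 and -2.94. Each of the 4 values came with the array at 9.81 (Lcn2) and 18.59 (Reg3b) left out, and over the arrays left out the highest values were 3.16 and 4.66. None past the threshold turned sign, but Mx1 (-0.21 to 1.82), Irgq (-0.02 to 0.3) and Jchain (-0.13 to 2.71), all not past it, did. Among lists whose median exceeded 0.2 in size, that of epithelial antimicrobial genes was -0.15 and that of neutrophil markers -0.16 without double knockout replicate 1, and that of acinar markers -0.1 without double knockout replicate 2. Among genes past the threshold, dim values limit the size of differences with an array under 4 in either group, those of Mcpt1, Mcpt2, Cpa3, Cma2, Gm12250, Iigp1, Socs1, Oas3, Cldn8, Nt5c1a, Wfdc2 and Rdh16. Genes not past it had such arrays too, among them Cxcl9, Ifng, Lcn2 and Lao1.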
